A study of Homo sapiens with 8 samples.

Results

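The NRF2 antioxidant genes described here are 8 genes, NFE2L2, KEAP1, HMOX1, NQO1, GCLC, GCLM, SRXN1 and TXN, chosen by name from the 58219 genes listed for each library. All 8 were found by their GENCODE symbol, and all 8 passed the filter on low counts. RNA was sequenced from NCI-H929 (H929) and KMS11, established multiple myeloma lines that carry the t(4;14) translocation, and each line is a single model. Cells had spent 24 h in 2 µM fluvastatin, a statin that blocks HMG-CoA reductase of the mevalonate pathway, or in ethanol as its solvent control. There were 2 biological replicates per line and treatment, which makes 8 libraries in 4 groups, and the study asked which genes fluvastatin perturbs in such cells.

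NRF2, the protein of NFE2L2, is a transcription factor that cells keep scarce while they are unstressed. KEAP1 holds it for ubiquitination by a cullin ligase and so for degradation by the proteasome. Oxidants and electrophiles modify cysteines of KEAP1, NRF2 then accumulates, pairs with a small MAF protein and binds antioxidant response elements near genes for glutathione synthesis, thioredoxin recycling, quinone reduction and heme breakdown. Because this control acts mainly on the protein, the RNA level of NFE2L2 is not a measure of NRF2 activity, and no protein was measured in these libraries. Plasma cells and myeloma cells make large amounts of disulfide-bonded immunoglobulin, a process that generates oxidants.

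The antioxidant response element has a core of TGACNNNGC, where N is any base. This core was searched on both strands of RefSeq promoter windows on GRCh38, which run from 250 bases before to 50 bases after a gene start. It occurred in 13.3% of 35116 windows of all genes. The 7 members that had a window held 9 windows, and 2 of these had a match, in GCLM and KEAP1. These stretches are shown because the same 9 bases, GCTTAGTCA, lay 34 bases before the start of GCLM and 31 bases before that of KEAP1, opposite to the direction of the gene. Capitals mark the match, and each stretch is written 5′ to 3′ along the strand of its gene.
GCLM, chr1:93909446-93909474, minus strand: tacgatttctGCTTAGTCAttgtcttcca
KEAP1, chr19:10502784-10502812, minus strand: gcccggctctGCTTAGTCAtggtgacctg
KEAP1 held another match, TGACACGGC, 54 bases before its start. GENCODE release 44 places the GCLM stretch over the start of its first exon and the KEAP1 stretch within a first exon of a KEAP1 transcript, both outside the coding part.

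A longer form, TGACTCAGC, was searched after the promoter windows had been seen. It is a case of the core and also contains TGACTCA, an AP-1 site, so a match does not tell these factors apart. It was in 0.561% of the promoter windows and in none of those of the members, while 6.44% of the stretches of 5000 bases before a gene start held it. Among the members it stood 455 bases before the start of NQO1 and 3156 bases before that of GCLC. The AP-1 site alone, TGANTCA, was in 7.71% of promoter windows and in no window of a member. The stretches of NQO1 and GCLC are shown because they are the 2 upstream matches.
NQO1, chr16:69726997-69727025, minus strand: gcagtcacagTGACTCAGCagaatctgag
GCLC, chr6:53548239-53548267, minus strand: cgcacaaagcGCTGAGTCAcggggaggcg
The NQO1 stretch overlaps an exon of NQO1-DT, a transcript that runs the other way, and the GCLC stretch lies in an intron of a longer GCLC transcript. A match of letters is a description, and no binding was measured.

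By depth, the libraries held between 26702515 and 41910446 expected counts, and the members drew between 222 (NQO1) and 26512 (TXN) of them in a library. The share of counts on protein-coding genes ran from 85.2% to 91.4%, and 1 fluvastatin library of KMS11, replicate 1, had 88.1% where the other KMS11 libraries had at least 90.8%. The replicates of KMS11 in fluvastatin were also the farthest apart, with an SD of 0.25 in their log2 ratio over 5561 genes against 0.13 to 0.18 in the other groups. As for the labelled cell type, 7 of 8 plasma cell and t(4;14) markers exceeded 1 TPM (transcripts scaled by length to a fixed total) in every library, and CD38 lay between 0.01 and 0.04 TPM in KMS11. Sums over 5 markers each of T cells, erythroid cells and stroma stayed at or below 4.29 TPM. The sum over 5 myeloid markers was 1.90 and 2.30 TPM in H929 in ethanol and 7.88 and 8.35 TPM in H929 in fluvastatin, nearly all of it CD68, with CD14 and CSF1R at 0 in every library.

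In ethanol, KMS11 held more RNA of 7 of the 8 members than H929 did, and NQO1 stood apart from the rest. NQO1, which reduces quinones without releasing radicals, had 3.89 and 5.41 TPM in the H929 libraries and 134 and 109 TPM in those of KMS11. No library of H929 came near one of KMS11. By counts it was 19.7-fold higher in KMS11 (log2 4.30 ± 0.21 SE, adjusted p = 7.37e-08). All 8 members passed the test, 7 higher and 1 lower, and 72.0% of all 13129 protein-coding genes tested did, 35.6% higher and 36.4% lower. The median log2 difference was 1.27 over the 8 members and -0.02 over all genes tested. In bulk RNA, fewer cells expressing a gene and less RNA per cell cannot be told apart.

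Both parts of the enzyme that makes glutathione's precursor, the catalytic subunit GCLC and the modifier GCLM, were higher in KMS11. GCLC had 8.16 and 7.01 TPM in H929 and 25.1 and 21.0 TPM in KMS11, a difference of 2.48-fold by counts (log2 1.31 ± 0.12 SE, adjusted p = 4.89e-06). GCLM had 4.60 and 4.66 TPM in H929 and 21.0 and 21.2 TPM in KMS11, which came to 3.57-fold (log2 1.84 ± 0.10 SE, adjusted p = 1.86e-07). Neither gene overlapped between the lines, but the share of all genes without such overlap was not counted. Of all genes tested, 72.0% were called. The ratio of GCLC to GCLM by TPM was between 1.501 and 1.774 in the 4 libraries of H929 and between 0.99 and 1.20 in the 4 of KMS11.

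HMOX1, TXN and SRXN1 differed in the same direction. HMOX1, the stress-inducible heme oxygenase, had 3.14 and 3.32 TPM in H929 and 13.4 and 13.7 TPM in KMS11, 3.02-fold higher by counts (log2 1.60 ± 0.17 SE, adjusted p = 1.72e-05). TXN, cytosolic thioredoxin, had 193 and 204 TPM in H929 and 661 and 692 TPM in KMS11, 2.35-fold higher (log2 1.23 ± 0.11 SE, adjusted p = 4.31e-06). SRXN1, sulfiredoxin, which restores overoxidized peroxiredoxins, had 6.58 and 6.98 TPM in H929 and 19.2 and 18.1 TPM in KMS11, 1.92-fold higher (log2 0.94 ± 0.10 SE, adjusted p = 1.87e-05). The groups did not overlap for any of these genes. Of all genes tested, 72.0% were called. The share of all genes without overlap between the lines was not counted.

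For the regulators themselves the line difference was smaller or depended on the scale. NFE2L2 had 19.2 and 17.5 TPM in H929 and 35.1 and 31.03 TPM in KMS11, and by counts it was 1.29-fold higher in KMS11 (log2 0.36 ± 0.087 SE, adjusted p = 0.00362). With each library's trend in GC content removed it was 0.05 (adjusted p = 0.512), while the other 6 higher members stayed past the threshold. KEAP1 was lower in KMS11 by 1.24 on the log2 scale (± 0.11 SE, adjusted p = 5.7e-06), a log2 fold change of -1.24. Its TPM differed far less, with 47.7 and 42.6 in H929 and 37.5 and 36.1 in KMS11, and limma on log2(TPM + 1) gave -0.28. The mean effective length that RSEM used for KEAP1 was 1485 bases in H929 and 1108 bases in KMS11, so equal counts mean a higher TPM in KMS11. Removal of the GC trend gave -0.35 for this gene, whose sequence has 60.8% GC. The median over all genes tested was -0.02 by counts, 0.31 with limma on log2(TPM + 1) and 0.46 with limma on log2(TPM + 0.1), so the TPM values of all members are relative to that shift.

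**Figure D1:**
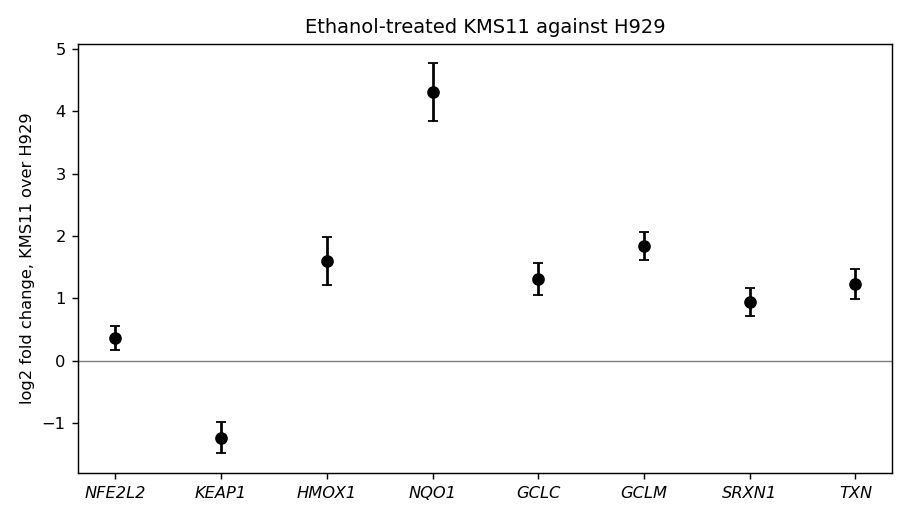
Log2 difference between KMS11 and H929 in ethanol for each of the 8 genes, from counts, with bars for the 95% interval and 2 libraries per line. NQO1 is the highest point at 4.30, 6 further genes lie between 0.36 and 1.84, and KEAP1 is the single gene below 0, at -1.24.

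Levels per length put the members in a different order in each line. In H929 in ethanol TXN led with a mean of 199 ± 8.31 TPM (SD, n = 2), followed by KEAP1 with 45.1 ± 3.62 and NFE2L2 with 18.3 ± 1.19. The 5 remaining genes lay between 3.23 and 7.59 TPM, where GCLC and SRXN1, and NQO1 and GCLM, were neighbours whose difference was within their spread. In KMS11 in ethanol TXN again led with 677 ± 21.5 TPM, and NQO1, sixth in H929, came second with 122 ± 17.8 TPM. KEAP1 had 36.8 ± 0.997 TPM, NFE2L2 33.1 ± 2.90 TPM and GCLC 23.0 ± 2.94 TPM. GCLC and GCLM, with 21.1 ± 0.15 TPM, overlapped, and SRXN1 and HMOX1 came last. NQO1 thus moved from below NFE2L2 in H929 to above it in KMS11 in every library.

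**Figure D2:**
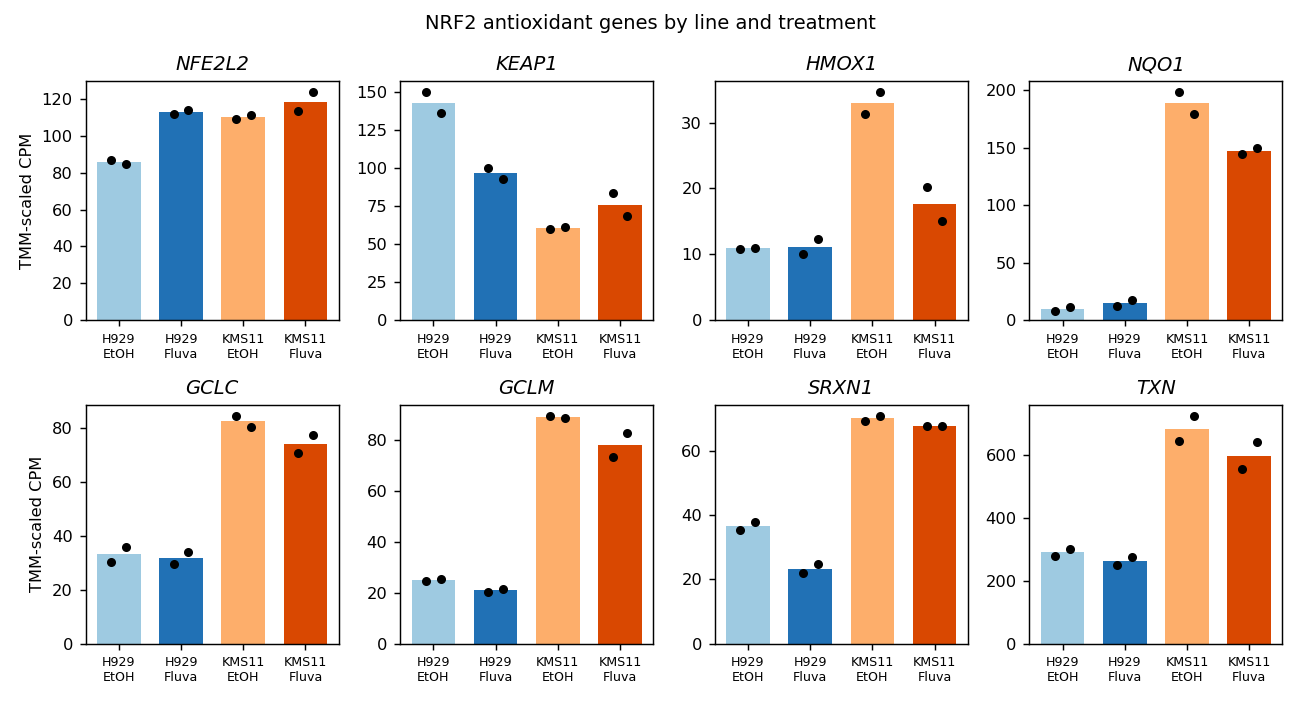
CPM after TMM scaling for each gene, one panel per gene with its own axis from 0, bars for the mean and dots for the 2 libraries of each line and treatment. HMOX1 is the gene whose fluvastatin libraries in KMS11 (20.1 and 14.98) lie farthest below their ethanol libraries (31.3 and 34.6) in proportion.

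Over both lines together, no member passed the threshold for fluvastatin against ethanol. edgeR called 0 of the 8, and DESeq2 also called 0, where 10.4% of all genes tested were called, 6.50% higher and 3.93% lower. At an unadjusted p under 0.05 there were 3, NFE2L2 with log2 0.25 ± 0.087 SE (adjusted p = 0.0944), GCLM with -0.22 ± 0.082 (adjusted p = 0.112) and SRXN1 with -0.34 ± 0.13 (adjusted p = 0.116). The 95% interval for GCLC ran from -0.32 to 0.10 and that for TXN from -0.36 to 0.02. The median log2 fold change was -0.15 over the members and 0.03 over all genes tested. HMOX1 (-0.45, adjusted p = 0.173), NQO1 (0.10, adjusted p = 0.783) and KEAP1 (-0.12, adjusted p = 0.664) had wide intervals in this fit. The values of these genes differed between the lines as described next.

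In H929, fluvastatin moved the sensor and its target transcription factor in opposite directions. KEAP1 stood at 150 and 137 CPM (counts scaled by TMM to a fixed total) in ethanol and at 100 and 93.0 CPM in fluvastatin. Every fluvastatin library was below every ethanol library, and KEAP1 fell 1.48-fold (log2 -0.57 ± 0.11 SE, adjusted p = 0.00266). By TPM its fall was smaller, from 47.7 and 42.6 to 34.3 and 36.9, and limma on log2(TPM + 1) gave -0.33. The mean effective length of KEAP1 was 1485 bases in ethanol and 1269 bases in fluvastatin. NFE2L2 had 87.0 and 84.9 CPM in ethanol and 112 and 114 CPM in fluvastatin. Its groups did not overlap either, as was so for 71% of all genes tested in H929. NFE2L2 rose 1.31-fold (log2 0.40 ± 0.087 SE, adjusted p = 0.00499). Among the 8 members 2 rose and 2 fell in H929, where 42.0% of all genes were called, 22.7% higher and 19.3% lower. The median log2 fold change was -0.11 over the members and 0.02 over all genes tested. By TPM the ratio of NFE2L2 to KEAP1 was 0.40 and 0.41 in ethanol and 0.67 and 0.64 in fluvastatin. The fall of KEAP1 was past the threshold under every alternative, between -0.33 and -0.63, whereas NFE2L2 missed it with limma on TPM (0.33, adjusted p = 0.0828 with a pseudocount of 1). Myeloid markers, chiefly CD68, and the T cell marker CD3E (up to 3.54 TPM) were higher in these fluvastatin libraries, and their part in the changes was not tested.

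SRXN1 and NQO1, both commonly used as readouts of NRF2, went opposite ways in H929. SRXN1 had 35.2 and 38.0 CPM in ethanol and 21.9 and 24.9 CPM in fluvastatin. All fluvastatin values were lower, as was so for 33.5% of all genes tested in H929. SRXN1 fell 1.57-fold (log2 -0.65 ± 0.10 SE, adjusted p = 0.000889), past the threshold under every alternative. TXN, which had 281 and 303 CPM in ethanol and 252 and 276 CPM in fluvastatin, was not called (log2 -0.15 ± 0.11 SE, adjusted p = 0.304), though it passed the threshold with the GC trend removed (-0.29, adjusted p = 0.00568). The ratio of TXN to SRXN1 by TPM was 29.3 in both ethanol libraries against 42.8 and 41.3 in fluvastatin. NQO1 had 7.56 and 11.7 CPM in ethanol and 12.4 and 17.4 CPM in fluvastatin. The lowest fluvastatin library was little above the highest ethanol library, and NQO1 rose 1.56-fold (log2 0.64 ± 0.20 SE, adjusted p = 0.0294). This call was lost without H929 ethanol replicate 1 (0.35, adjusted p = 0.206), H929 fluvastatin replicate 2 (0.38, adjusted p = 0.231), KMS11 ethanol replicate 1 (0.60, adjusted p = 0.0621) or KMS11 ethanol replicate 2 (0.60, adjusted p = 0.0622). It was also lost in a fit of the H929 libraries alone (0.63, adjusted p = 0.0683) and with limma on log2(TPM + 1) (0.40, adjusted p = 0.104). A fit that blocked on the replicate number kept it (0.64 ± 0.11 SE, adjusted p = 0.000878).

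The glutathione enzyme and heme oxygenase were not called in H929. GCLM had 24.4 and 25.2 CPM in ethanol and 20.4 and 21.4 CPM in fluvastatin. These groups did not overlap, with a log2 fold change of -0.25 ± 0.10 SE (adjusted p = 0.0819), and the gene passed the threshold without KMS11 fluvastatin replicate 1 (-0.27, adjusted p = 0.042) or replicate 2 (-0.28, adjusted p = 0.0406) and with the GC trend removed (-0.39, adjusted p = 0.001). GCLC had 30.5 and 36.0 CPM in ethanol and 29.5 and 33.9 CPM in fluvastatin, overlapping, with a 95% interval from -0.33 to 0.20. HMOX1 had 10.8 and 11.0 CPM in ethanol and 10.0 and 12.3 CPM in fluvastatin. The ethanol values lay between the fluvastatin values, and the interval ran from -0.36 to 0.43. Of all genes tested in H929, 71% did not overlap between the treatments.

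In KMS11, HMOX1 was the member that changed. It had 31.3 and 34.6 CPM in ethanol and 20.1 and 14.98 CPM in fluvastatin. Both fluvastatin libraries were below both ethanol libraries, as was so for 26.5% of all genes tested in KMS11. HMOX1 fell 1.88-fold (log2 -0.91 ± 0.17 SE, adjusted p = 0.0181). By TPM it went from 13.4 and 13.7 to 7.14 and 5.90, which was still above the 2.87 to 3.61 TPM of all H929 libraries. It was 1 of 8 members called, lower, where 3.12% of all genes were called, 2.58% higher and 0.533% lower. The median log2 fold change was -0.17 over the members and 0.00 over all genes tested. Without KMS11 ethanol replicate 1 the call was lost (-1.01, adjusted p = 0.102), as it was without KMS11 ethanol replicate 2 (-0.87, adjusted p = 0.169). It was kept without either fluvastatin library of KMS11, of which replicate 1 is the one with the lower share of protein-coding counts.

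The other targets were lower in the mean in KMS11 in fluvastatin without passing the threshold. NQO1 had 198 and 180 CPM in ethanol and 145 and 150 CPM in fluvastatin, with a log2 fold change of -0.36 ± 0.17 SE (adjusted p = 0.254). GCLM had 89.2 and 88.3 CPM in ethanol and 73.2 and 82.6 CPM in fluvastatin (-0.19 ± 0.097 SE, adjusted p = 0.284). GCLC had 84.5 and 80.5 CPM in ethanol and 71.0 and 77.5 CPM in fluvastatin (-0.15 ± 0.11 SE, adjusted p = 0.451). TXN had 646 and 725 CPM in ethanol and 556 and 643 CPM in fluvastatin (-0.19 ± 0.11 SE, adjusted p = 0.312). SRXN1, at 69.4 and 70.8 CPM in ethanol and 67.8 CPM in both fluvastatin libraries, had an interval of -0.27 to 0.17. In KMS11 the fluvastatin and ethanol libraries did not overlap for any of the 8 members, 6 lower and 2 higher, while 53.4% of all genes tested did not overlap and 3.12% were called. In H929 they did not overlap for 6 members, against 71.0% of all genes.

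The regulators in KMS11 did not pass the threshold. NFE2L2 had 110 and 112 CPM in ethanol and 113 and 124 CPM in fluvastatin (0.10 ± 0.086 SE, adjusted p = 0.507). KEAP1 had 60.3 and 61.5 CPM in ethanol and 83.8 and 68.3 CPM in fluvastatin (0.32 ± 0.11 SE, adjusted p = 0.146). KEAP1 was highest in fluvastatin replicate 1, but it passed the threshold without replicate 2 (0.42, adjusted p = 0.0291), and its value was -0.05 with the GC trend removed. The ratio of NFE2L2 to KEAP1 by TPM was 0.94 and 0.86 in ethanol and 0.76 and 0.87 in fluvastatin, overlapping between treatments and above all values of H929.

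**Figure D3:**
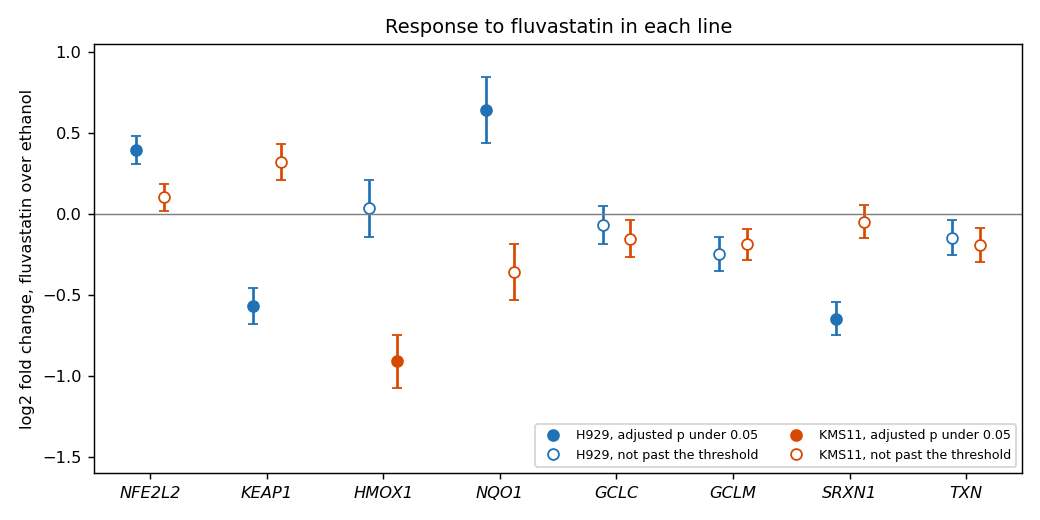
Log2 fold change of each gene for fluvastatin over ethanol in H929 and in KMS11, from counts, with bars for 1 standard error and 2 libraries per group. The points of the lines lie on opposite sides of 0 for KEAP1 (-0.57 and 0.32), NQO1 (0.64 and -0.36) and HMOX1 (0.03 and -0.91). Those of GCLC, GCLM and TXN lie near each other.

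The responses of the lines differed for 4 of the 8 members, and 23.2% of all genes differed, 11.7% with the higher and 11.5% with the lower response in KMS11. The difference is the log2 fold change in KMS11 minus that in H929, tested as an interaction. KEAP1 (0.89 ± 0.16 SE, adjusted p = 0.00427) and SRXN1 (0.60 ± 0.14 SE, adjusted p = 0.0158) had the higher response in KMS11. HMOX1 (-0.95 ± 0.24 SE, adjusted p = 0.0201) and NQO1 (-1.001 ± 0.27 SE, adjusted p = 0.0248) had the lower one. The median difference was -0.07 over the members and 0.00 over all genes tested. The intervals of the 4 other members ran from -0.57 to -0.02 for NFE2L2 (adjusted p = 0.109), from -0.45 to 0.28 for GCLC, from -0.26 to 0.37 for GCLM (past the threshold with the GC trend removed, 0.30, adjusted p = 0.0371) and from -0.38 to 0.29 for TXN.

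These differences varied in how far they depended on a library or a scale. KEAP1 kept its call without each library in turn (0.76 to 1.02) and lost it with limma on log2(TPM + 1) (0.43, adjusted p = 0.086) and with the GC trend removed (0.32, adjusted p = 0.077). SRXN1 lost its call without H929 ethanol replicate 2, H929 fluvastatin replicate 1, KMS11 ethanol replicate 1 or KMS11 ethanol replicate 2 (0.51 to 0.62, adjusted p from 0.0557 to 0.0898) and with limma on log2(TPM + 1) (0.37, adjusted p = 0.185). HMOX1 and NQO1 kept theirs on the TPM scale, with the GC trend removed and with a replicate block. Both lost them without H929 ethanol replicate 1, H929 fluvastatin replicate 2, KMS11 ethanol replicate 1 or KMS11 ethanol replicate 2, with HMOX1 between -0.79 and -1.01 (adjusted p from 0.0552 to 0.0815) and NQO1 between -0.71 and -1.06 (adjusted p from 0.0643 to 0.107).

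**Figure D4:**
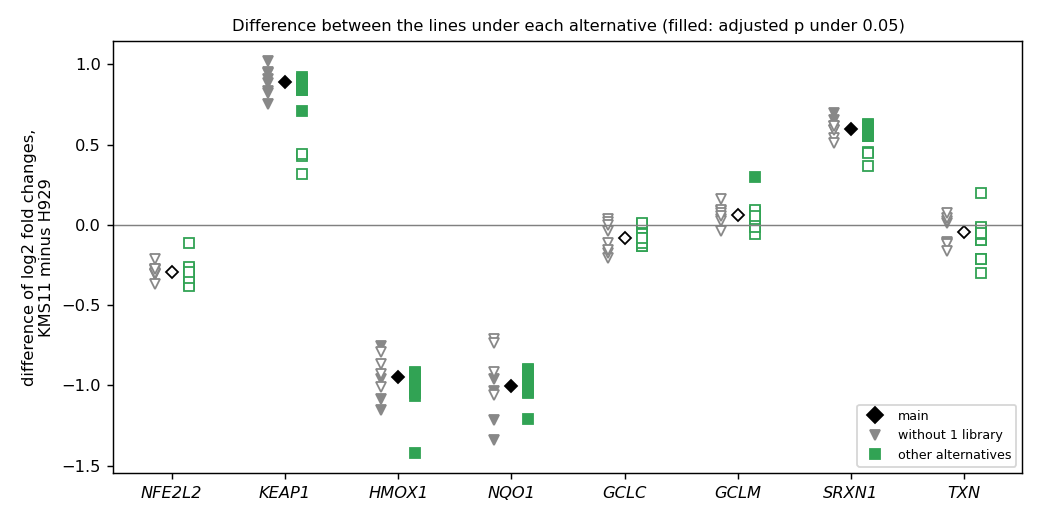
Difference of the fluvastatin responses, KMS11 minus H929 in log2 units, for each gene in the main fit (diamonds), without 1 library (triangles) and under the other alternatives (squares), with filled symbols for an adjusted p under 0.05. KEAP1 and SRXN1 stay above 0 and HMOX1 and NQO1 below 0 under all of them, while not every symbol is filled.

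The wider antioxidant pathway was described with 92 further genes in 7 lists, of which 86 were tested. Across both lines 11 of the 86 rose and 6 fell, where 6.50% of all genes rose and 3.93% fell. In H929 15 rose and 25 fell, where 22.7% of all genes rose and 19.3% fell. In KMS11 10 rose and 0 fell, where 2.58% of all genes rose and 0.533% fell. edgeR gave this count of 0, DESeq2 gave 2 that fell, and 8 of the 86 had a lower value with an unadjusted p under 0.05 in edgeR. The median log2 fold change of the 86 was -0.16 in H929 and 0.03 in KMS11, against 0.02 and 0.00 for all genes. For 15 of them the response was higher and for 6 lower in KMS11 than in H929, beside 11.7% and 11.5% of all genes.

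Among 15 regulators, all tested, 6 rose and 1 fell across both lines, beside 6.50% and 3.93% of all genes. MAFF, a small MAF partner of NRF2, had log2 fold changes of 0.81 ± 0.30 SE in H929 (adjusted p = 0.0541) and 1.58 ± 0.34 SE in KMS11 (adjusted p = 0.0402). Its level was low, with 1.19 to 3.51 TPM in the H929 libraries and 0.40 to 1.29 TPM in those of KMS11. SQSTM1, the autophagy receptor p62 that also sequesters KEAP1, rose by 0.42 in H929 (adjusted p = 0.0236) and by 0.94 in KMS11 (adjusted p = 0.00419), from 46.5 and 44.5 TPM to 85.2 and 74.1 TPM in the latter. NFE2L1, an NRF2 relative that drives proteasome genes, rose by 1.055 in H929 (adjusted p = 0.000124) and by 0.55 in KMS11 (adjusted p = 0.039). Its TPM went from 17.6 and 16.3 to 39.0 and 36.3 in H929 but overlapped in KMS11, with 58.3 and 54.2 in ethanol and 57.1 and 60.5 in fluvastatin. BACH2, a repressor related to the NRF2 competitor BACH1, rose by 1.81 in H929 (adjusted p = 3.1e-05) and had 0.64 in KMS11 (adjusted p = 0.0995), where it stayed at or below 0.61 TPM.

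Of 20 glutathione genes 19 were tested, and in H929 4 rose and 5 fell, close to the 42.0% of all genes called there, while in KMS11 2 rose, beside 2.58% of all genes. SLC7A11, the cystine importer that feeds glutathione synthesis, went from 1.56 and 1.22 TPM to 6.21 and 8.03 TPM in H929, a rise of 2.33 ± 0.18 SE (adjusted p = 1.3e-05). In KMS11 it rose by 0.76 ± 0.17 SE (adjusted p = 0.0477), and the responses differed (-1.57, adjusted p = 0.00223). CHAC1, which degrades glutathione, rose by 1.51 ± 0.36 SE in H929 (adjusted p = 0.00798) and by 3.07 ± 0.50 SE in KMS11 (adjusted p = 0.0109), where it started from 0.32 and 0.16 TPM. SLC7A11 and CHAC1, and SESN2 below, are also known targets of the stress factor ATF4. GPX1, a glutathione peroxidase, fell by 1.40 in H929 (adjusted p = 7e-05), and it was at 0.03 to 0.14 TPM in KMS11. MGST3, a microsomal glutathione transferase, rose by 1.03 in H929 (adjusted p = 3.9e-05) and had 0.18 in KMS11 (adjusted p = 0.316).

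Of 14 thioredoxin and peroxiredoxin genes, all tested, 3 rose and 6 fell in H929, beside 22.7% and 19.3% of all genes, and 1 rose in KMS11, beside 2.58%. TXNRD1, the reductase that recharges TXN, had 49.6 and 49.7 TPM in ethanol and 33.2 and 35.9 TPM in fluvastatin in H929 and fell by 0.47 (adjusted p = 0.00638), with -0.29 in KMS11 (adjusted p = 0.169). PRDX1, a peroxiredoxin that thioredoxin reduces, fell by 0.58 in H929 (adjusted p = 0.00103) and had -0.31 in KMS11 (adjusted p = 0.114). Across both lines TXNRD1 (-0.38, adjusted p = 0.0346) and PRDX1 (-0.44, adjusted p = 0.0225) passed the threshold. SESN2, a stress-induced sestrin, rose by 2.00 in H929 (adjusted p = 4.8e-05) and by 1.25 in KMS11 (adjusted p = 0.0113). PRDX5, a peroxiredoxin of mitochondria and peroxisomes, rose by 0.83 in H929 (adjusted p = 0.00337) and had 0.48 in KMS11 (adjusted p = 0.156).

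The remaining lists held fewer tested genes. Of 11 quinone and xenobiotic genes tested 4 fell in H929, beside 19.3% of all genes, and in KMS11 edgeR and DESeq2 called 0, with 2 higher at an unadjusted p under 0.05. Those that fell were PIR, pirin (-1.10, adjusted p = 0.000337), the carbonyl reductase CBR1 (-0.61, adjusted p = 0.00124), the NQO1 relative NQO2 (-0.49, adjusted p = 0.0139) and the aldose reductase AKR1B1 (-0.35, adjusted p = 0.0153). Of 9 genes that supply NADPH 4 fell in H929, beside 19.3% of all genes, and 2 rose in KMS11, beside 2.58%. The pentose phosphate enzymes TKT (-0.77, adjusted p = 0.00663) and TALDO1 (-0.51, adjusted p = 0.00207) and the malic enzyme ME2 (-0.31, adjusted p = 0.0215) fell in H929, and the isocitrate dehydrogenase IDH1 rose in KMS11 (0.50, adjusted p = 0.0146). The response was higher in KMS11 for 4 of the 9, beside 11.7% of all genes. They were TKT (0.9998, adjusted p = 0.0187), TALDO1 (0.71, adjusted p = 0.00576), IDH1 (0.52, adjusted p = 0.0153) and PGD (0.78, adjusted p = 0.00208). PGD, named after its values were seen, fell in H929 (-0.39, adjusted p = 0.0043) and rose in KMS11 (0.38, adjusted p = 0.0405).

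Of 10 heme and iron genes 1 rose and 1 fell in H929, a smaller share than the 42.0% of all genes called there, and in KMS11 edgeR and DESeq2 called 0, with 0 at an unadjusted p under 0.05. FTH1, the ferritin heavy chain, rose by 0.36 in H929 (adjusted p = 0.0292), and ABCB6, a porphyrin transporter, fell by 0.63 (adjusted p = 0.00597). In KMS11, where HMOX1 fell, FTH1 had 0.03 (adjusted p = 0.895). Of 8 superoxide and metal genes tested 1 rose and 3 fell in H929, near the 42.0% of all genes called. CAT, catalase, rose by 0.51 (adjusted p = 0.00179), and the metallothionein MT1X (-0.86, adjusted p = 0.0295), the methionine sulfoxide reductase MSRB1 (-0.69, adjusted p = 0.0156) and the superoxide dismutase SOD1 (-0.32, adjusted p = 0.0473) fell.

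**Figure D5:**
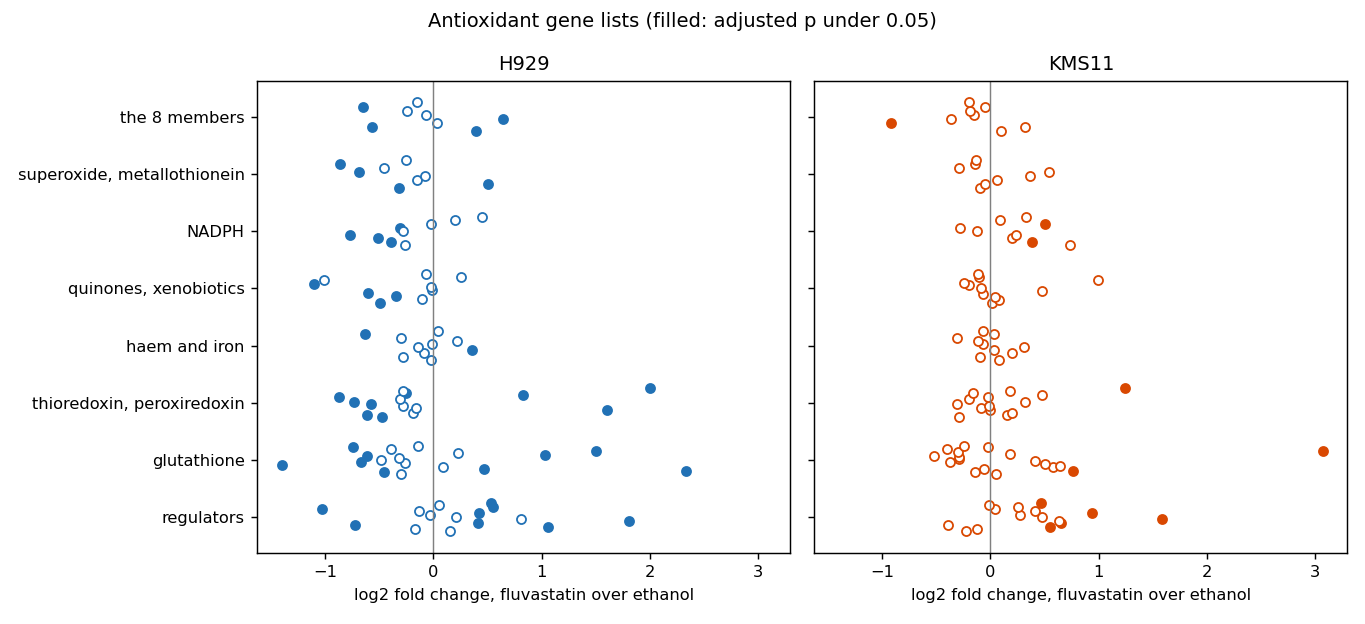
Log2 fold change for fluvastatin over ethanol of the tested genes in each list, in H929 (left) and KMS11 (right) on the same axis, with filled points for an adjusted p under 0.05 and no point for genes whose mean is under 0.1 TPM in that line. Filled points lie on both sides of 0 in H929, and in KMS11 the filled point left of 0 is HMOX1 at -0.91.

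For the 5 members called within a line, the genes with the nearest profile were sought by the root mean square difference of log2 CPM over the 8 libraries, after centring each line, among 8861 genes. For KEAP1 these were TIMM44 (0.036), POLR2J (0.041) and POM121 (0.048), where the median over all genes was 0.29. For NFE2L2 they were ECPAS, TRAK2 and ZXDB (0.022 to 0.027), and for SRXN1 they were RBM28, TUBD1 and MPZL1 (0.031 to 0.038). For NQO1 they were CTSS, CACNA2D1 and ZNF770 (0.10 to 0.12). HMOX1 had the farthest nearest genes, SLCO5A1, JAG1 and ARMCX5 (0.16 to 0.18, median 0.40). None of the 15 genes was on an antioxidant list, but these lists held only 86 of the 13129 genes tested, so this absence says little.

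On the genome (GRCh38, GENCODE release 44), NFE2L2 lies on chr2:177218667-177392756, KEAP1 on chr19:10486125-10503558, HMOX1 on chr22:35380361-35394214 and NQO1 on chr16:69706996-69726668. GCLC lies on chr6:53497341-53616970, GCLM on chr1:93885199-93909456, SRXN1 on chr20:646615-653200 and TXN on chr9:110243810-110256507. Only HMOX1 is on the plus strand. HMOX1, GCLM and TXN overlap no other annotated gene. NQO1 overlaps a gene of the opposite strand, and NFE2L2 and GCLC overlap genes of both strands. Those of the opposite strand include HNRNPA3 and AGPS for NFE2L2 and GCLC-AS1 for GCLC. KEAP1 and SRXN1 each overlap an unnamed gene of their own strand. The kit marks strand, but the strand setting of the counting was not given in the sources used here, so shared reads cannot be separated for these 5 genes.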

How the data were processed

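Stranded total RNA libraries depleted of ribosomal RNA were aligned by the authors to GRCh38 with STAR 2.5.2b and quantified with RSEM 1.3.0 on an earlier GENCODE release. The authors deposited expected counts (estimated fragments per gene, not normalized) and TPM (scaled by effective length over all annotated genes). The authors also deposited FPKM, scaled by length and library, which was not used. Groups came from the sample labels. Expected counts were rounded, 57392 of 58219 identifiers were found in GENCODE release 44, and its protein-coding genes were kept by filterByExpr (minimum count 10, minimum total 15), scaled by TMM and tested with edgeR 4.0.16 in R 4.3.3 (quasi-likelihood F test, Benjamini-Hochberg over 13129 genes, threshold 0.05). Both lines together were fitted with terms for line and treatment, and the other comparisons from the 4 group means. With 2 replicates per group the spread is shared across genes and groups. Adjusted p values set each difference against this shared spread between these cultures. Tested on simulated data, the fit recovered most of the larger changes and fewer of the small ones, and its share of false calls was above 0.05.

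The members and lists were chosen with earlier results of these data known, so lists are described and not tested. SOD2 was not matched. PGD was named outside the rule that follows, after its values were seen. Named genes are all members, up to 4 genes per list past the threshold across both lines and then within a line, by size of change, and the 3 nearest profiles of each member called within a line (mean log2 CPM of at least 3). Alternatives were DESeq2 1.42.0, limma 3.58.1 on log2(TPM + 1) and log2(TPM + 0.1), other scalings and filters, all annotated genes, per-library trends in GC content or effective length, a replicate block, no line term, the compared libraries alone and each library left out. Promoter windows were from RefSeq (GRCh38). HMOX1 was not in that table.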

Additional observations from a re-analysis of the deposited data

Results flagged for a closer look

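For 4 genes the effect of fluvastatin differed between the lines by the interaction test. KEAP1 (0.89) and SRXN1 (0.60) had the higher log2 response in KMS11, and HMOX1 (-0.95) and NQO1 (-1.001) the lower one. The separate responses, in H929 and then KMS11, were -0.57 and 0.32 for KEAP1, -0.65 and -0.05 for SRXN1, 0.03 and -0.91 for HMOX1 and 0.64 and -0.36 for NQO1. As 23.2% of all genes tested differed between the lines, 4 of 8 is a description of these genes.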

How the results depend on the processing

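Under the alternatives, 717 values of single genes kept their direction and their side of the threshold, 29 no longer passed it, 8 newly passed it and 30 changed sign. The number of members called was 1 across both lines with the GC trend removed, and it was 2 in H929 and 2 for the difference between the lines with limma on either TPM scale. In H929 it was 6 with the GC trend removed, GCLM and TXN being added, and it ranged from 3 to 5 with 1 library left out, 5 being without either KMS11 fluvastatin library. In KMS11 it ranged from 0 to 2 over the fits that left out 1 library, and for the difference from 1 to 4. Line differences in ethanol were called for 7 or 8 members under every alternative. Same-numbered replicates deviated together in H929 (correlation 0.774), as paired libraries would, but not in KMS11 (-0.078). The main fit did not pair the libraries in either line. With a replicate block 2 members were called in KMS11, NQO1 being added (-0.36, adjusted p = 0.0301). In H929 the block kept the same 4 calls, with a smaller adjusted p for NQO1 (0.64, adjusted p = 0.000878). The NQO1 difference between the lines was -0.998 with the block (adjusted p = 0.00066). Values that changed sign were those of genes not called. NQO1 across both lines was -0.044 and -0.013 with limma on log2(TPM + 1) and log2(TPM + 0.1), -0.29 without a line term, and -0.11 to 0.21 with 1 library left out. In H929, HMOX1 was -0.015 with all annotated genes, -0.0018 and -0.0041 with limma and -0.12 to 0.17 with 1 library left out, TXN was 0.019 with the length trend removed, and GCLC was -0.19 to 0.056 with 1 library left out. In KMS11, NFE2L2 was -0.043 and -0.044 with limma and -0.0081 to 0.16 with 1 library left out, and KEAP1 was -0.054 with the GC trend removed. For the difference, GCLM was -0.054 and -0.014 with limma and -0.041 to 0.16 with 1 library left out, and it passed the threshold with the GC trend removed (0.30, adjusted p = 0.0371), GCLC was 0.0058 with limma on log2(TPM + 0.1), 0.013 with the GC trend removed and -0.21 to 0.034 with 1 library left out, and TXN was 0.20 with the GC trend removed and -0.16 to 0.073 with 1 library left out. The cause of these shifts was not tested. Members had at least 222 counts in every library, and the part of depth in the calls was not tested.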
